A study of Mus musculus with 8 samples.

Results

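The 9 genes described here mark GABAergic interneurons: Gad1, Gad2 and Slc32a1 for the synthesis and vesicular transport of GABA, Sst, Vip, Npy and Cck for neuropeptides, and Pvalb and Calb2 for calcium-binding proteins. They were found by matching the Ensembl gene identifiers of the deposited count table to annotated symbols, which located all 9 among the 22430 genes of the table. Each sample was, by the study's methods, a brain hemisphere of a male mouse of the inbred strain C57Bl/6JRj, whereas the sample titles say whole brain. Of the mice, 4 were young adults of 6 months (6m) and 4 were aged mice of 24 months (24m), each with its own library. The mice of both ages carried no transgene or treatment that the sources name. By the study's methods these were direct RNA libraries for ONT sequencing, in which unamplified poly(A) RNA is read as it passes a nanopore, whereas the sample labels name a poly(A) cDNA kit. The libraries held between 573152 and 1255424 counts, the 2 extremes being 6m replicate 2 and 24m replicate 4, and the 9 genes together took 0.320% to 0.353% of them. One library stood apart from its age, 24m replicate 1. Over genes with a mean of over 5 counts, it differed from the other 24m libraries by a chi-square of 2.73 to 4.07 per degree of freedom. The other 24m libraries differed from each other by 1.30 to 1.97, 6m libraries from each other by 1.18 to 1.84, and libraries of different ages by 3.26 to 5.07. Library totals did not separate the ages (exact permutation test, two-sided, p = 0.543).

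GABA is the main inhibitory transmitter of the brain. GABAergic interneurons make it from glutamate with the glutamate decarboxylases GAD67 (Gad1) and GAD65 (Gad2), and load it into synaptic vesicles with the transporter VGAT (Slc32a1). In the cortex and hippocampus, partly overlapping classes of interneurons are known by somatostatin, vasoactive intestinal peptide, neuropeptide Y, cholecystokinin, parvalbumin or calretinin (Calb2). None of these genes is confined to interneurons in a whole hemisphere: Purkinje cells express Pvalb and Gad1, striatal projection neurons and olfactory bulb granule cells are GABAergic, and Cck is abundant in pyramidal neurons. In such bulk tissue, fewer cells of a type and less RNA per cell cannot be told apart.

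All 9 genes passed the filter on low counts, a mean of over 5 counts across the 8 libraries, and were tested with 9375 genes in all. A gene was called changed at an adjusted p of at most 0.05 (edgeR quasi-likelihood test, Benjamini-Hochberg) and an absolute log2FC, 24m against 6m, of at least 0.58. By this rule 1 of the 9 changed, Gad1, which rose, against 14.5% of all tested genes that changed in either direction and 10.3% that rose. None of the 9 fell by this rule, against 4.17% of all tested genes. By the adjusted p alone 4 of the 9 passed, against 21.7% of all tested genes: Gad1 and Slc32a1 were higher at 24m, against 12.3%, and Sst and Cck were lower, against 9.42%. The median log2FC of the 9 genes was −0.20, with 3 positive and 6 negative values, and that of all tested genes was −0.003. Without 24m replicate 1, which stood apart, 1 of the 9 genes was again called changed, and the log2FC were 0.90 for Gad1, −0.42 for Gad2, 0.38 for Slc32a1, −0.26 for Sst, 0.47 for Vip, −0.13 for Npy, −0.40 for Cck, −0.24 for Pvalb and −0.30 for Calb2. Levels are given as counts per 1000000 (CPM) on library sizes scaled by TMM, a factor that evens out differences in composition between libraries.

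**Figure D1:**
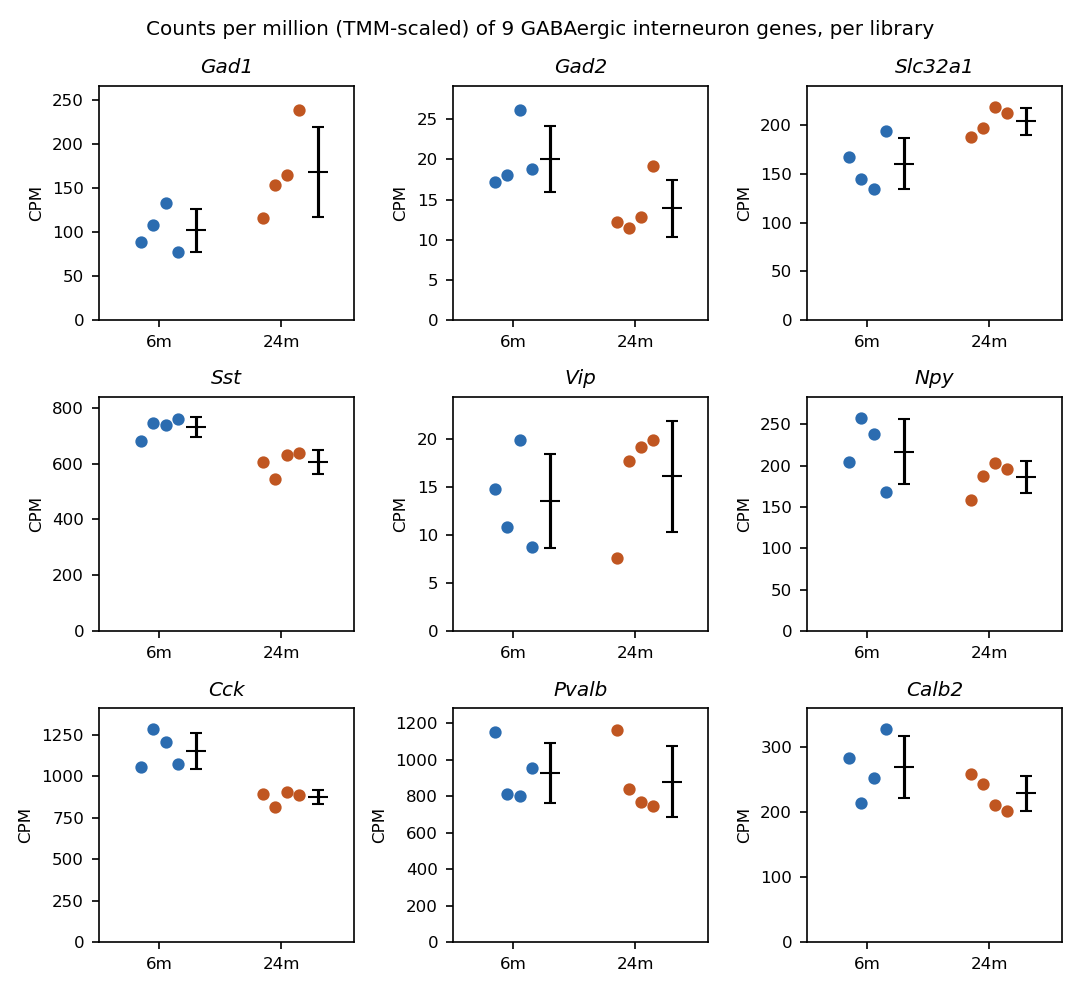
CPM on TMM-scaled library sizes (vertical axes, each from 0) of the 9 genes in the 4 libraries of 6m (blue) and the 4 of 24m (orange), drawn from left to right as replicates 1 to 4, with the mean and SD in black. The libraries of the ages do not overlap for Sst and Cck, and overlap for the other 7 genes.

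Of the genes for GABA synthesis and transport, Gad1 rose at 24m, Slc32a1 was higher with a difference under the fold minimum, and Gad2 did not pass. Gad1 (ENSMUSG00000070880, chr2:70383416-70432372 of GRCm39, plus strand, 17 exons in the canonical transcript) encodes the decarboxylase that makes most of the brain's GABA. It stood at 88.6, 108, 133 and 77.9 CPM in 6m replicates 1 to 4 and at 116, 154, 165 and 238 CPM in 24m replicates 1 to 4. The highest library was 24m replicate 4, the highest 6m library lay above the lowest 24m library, and the ages thus overlapped. The mean rose from 102 ± 24.3 CPM (SD, n = 4) to 168 ± 51.0 CPM (SD, n = 4), with a log2FC of 0.75 (SE 0.178, 95% interval 0.39 to 1.12), or 1.68-fold, and an adjusted p of 0.00386 (edgeR quasi-likelihood test, Benjamini-Hochberg). The exact permutation test of the mean CPM (two-sided) gave p = 0.057, where 0.029 is the smallest value that 4 against 4 libraries allow. In DESeq2 on quantile-normalized counts the call of Gad1 was lost, with a log2FC of 0.72 and an adjusted p of 0.0873. Without 24m replicate 4 the log2FC was 0.54 and the gene was under the fold minimum, with an adjusted p of 0.0235 (edgeR quasi-likelihood test, Benjamini-Hochberg). The spread of Gad1 among mice was wider than counting alone gives, with a coefficient of variation of 23.8% at 6m and 30.3% at 24m where counting gives 11.8% and 8.54%.

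Slc32a1 (ENSMUSG00000037771, chr2:158452605-158464883, plus strand, 2 exons) encodes the vesicular GABA and glycine transporter. It stood at 167, 145, 134 and 193 CPM in 6m replicates 1 to 4 and at 187, 196, 218 and 212 CPM in 24m replicates 1 to 4. A single 6m library, replicate 4, lay inside the 24m range, and the other 6m libraries lay below it. The mean was 160.0 ± 26.2 CPM (SD, n = 4) at 6m and 203 ± 13.8 CPM (SD, n = 4) at 24m, a log2FC of 0.34 (SE 0.122, 95% interval 0.09 to 0.59) with an adjusted p of 0.0435 (edgeR quasi-likelihood test, Benjamini-Hochberg). The exact permutation test (two-sided) gave p = 0.057. This call was lost without any 1 of 6 libraries: the adjusted p (edgeR quasi-likelihood test, Benjamini-Hochberg) was 0.0742, 0.112 and 0.170 without 6m replicates 1, 2 and 3, and 0.0755, 0.114 and 0.0716 without 24m replicates 2, 3 and 4.

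Gad2 (ENSMUSG00000026787, chr2:22511862-22583886, plus strand, 16 exons) encodes the decarboxylase found mostly at axon terminals, and it was measured with few reads, 14, 10, 21 and 15 counts in 6m replicates 1 to 4 and 8, 11, 10 and 25 counts in 24m replicates 1 to 4. In CPM these were 17.2, 18.1, 26.1 and 18.8 at 6m and 12.2, 11.4, 12.8 and 19.2 at 24m. All 24m libraries but replicate 4 lay below every 6m library, and replicate 4 lay among them. The means were 20.1 ± 4.10 CPM and 13.9 ± 3.56 CPM (SD, n = 4), with a log2FC of −0.48 (SE 0.288, 95% interval −1.07 to 0.11) and an adjusted p of 0.243 (edgeR quasi-likelihood test, Benjamini-Hochberg), and the exact permutation test (two-sided) gave p = 0.114. The spread among mice, 20.4% at 6m and 25.6% at 24m, was no wider than the 26.5% and 29.3% that counting alone gives. The coding sequences of Gad1 and Gad2 were 67.4% identical over 1737 aligned bases, and their longest identical run was 17 bases.

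The reads did not need scaling between libraries for the ratio of Gad1 to Gad2 counts within a library. It was 5.14, 6, 5.10 and 4.13 in 6m replicates 1 to 4 and 9.5, 13.5, 12.9 and 12.4 in 24m replicates 1 to 4. Every 24m library had a higher ratio than every 6m library, and the mean went from 5.09 ± 0.763 to 12.1 ± 1.76 (SD, n = 4). The ratio of Gad1 to Slc32a1 counts averaged 0.668 ± 0.259 at 6m and 0.821 ± 0.214 at 24m (SD, n = 4), and these ranges overlapped. The ratios were chosen with results of these data known and are given as descriptions, with no test. The denominators of the first ratio, 8 to 25 counts, limit its precision.

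Of the peptide genes, Sst and Cck were lower at 24m with no overlap between the ages and with differences under the fold minimum, and Npy and Vip did not pass. Sst (ENSMUSG00000004366, chr16:23707321-23711733, minus strand, 2 exons) encodes somatostatin, a peptide of dendrite-targeting interneurons that inhibits transmitter and hormone release. It stood at 679, 745, 737 and 758 CPM in 6m replicates 1 to 4 and at 605, 545, 632 and 639 CPM in 24m replicates 1 to 4. The lowest 6m library lay above the highest 24m library. The mean was 729.9 ± 34.8 CPM at 6m against 605 ± 42.9 CPM at 24m (SD, n = 4), a difference of −17.0% or a log2FC of −0.27 (SE 0.0872, 95% interval −0.45 to −0.09), with an adjusted p of 0.0283 (edgeR quasi-likelihood test, Benjamini-Hochberg). The list of hypothalamic markers, a region rich in somatostatin, summed to 649 ± 72.2 CPM at 6m against 620.4 ± 121 CPM at 24m (SD, n = 4). The exact permutation test of Sst (two-sided) gave 0.029, the smallest p it allows. The call was lost without any 1 of 5 libraries: the adjusted p (edgeR quasi-likelihood test, Benjamini-Hochberg) was 0.0809, 0.0763 and 0.0948 without 6m replicates 2, 3 and 4, and 0.108 and 0.0513 without 24m replicates 2 and 3. The log2FC of Sst was negative under every scaling tried, with an adjusted p of 0.155 when library sizes were used without TMM (edgeR quasi-likelihood test, Benjamini-Hochberg) and of 0.350 in DESeq2 on quantile-normalized counts.

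Cck (ENSMUSG00000032532, chr9:121315695-121324863, minus strand, 3 exons) encodes cholecystokinin, a peptide of basket interneurons and of many pyramidal neurons. It stood at 1057, 1284, 1205 and 1075 CPM in 6m replicates 1 to 4 and at 896, 816, 905 and 889.8 CPM in 24m replicates 1 to 4. All 24m libraries lay below all 6m libraries. The mean was 1155 ± 108 CPM at 6m against 877 ± 40.9 CPM at 24m (SD, n = 4), a difference of −24.0% or a log2FC of −0.40 (SE 0.0880, 95% interval −0.58 to −0.22), with an adjusted p of 0.00228 (edgeR quasi-likelihood test, Benjamini-Hochberg). The exact permutation test (two-sided) gave p = 0.029. The list of cortical glutamatergic markers, whose neurons express Cck, summed to 2468 ± 85.4 CPM at 6m against 2838 ± 313 CPM at 24m (SD, n = 4). Nrgn (mean 1780 CPM at 6m and 1868 at 24m) and Slc17a7 (536 and 806) held most of this sum. The median log2FC of the 9 tested markers of this list was 0.07, and 7 of them did not pass. The part of these neurons in the difference of Cck was not tested. The adjusted p of Cck stayed at or under 0.0179 when any 1 library was left out (edgeR quasi-likelihood test, Benjamini-Hochberg). The call was lost in DESeq2 on quantile-normalized counts, with a log2FC of −0.23 and an adjusted p of 0.0982, and in limma-voom with quantile normalization, with −0.21 and an adjusted p of 0.0513. The libraries of the 2 ages were thus apart for 2 of the 9 genes, Sst and Cck, against 21.1% of all tested genes.

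Npy (ENSMUSG00000029819, chr6:49799026-49806489, plus strand, 4 exons) encodes neuropeptide Y, which many somatostatin neurons and the neurogliaform cells release. It stood at 204, 257, 238 and 168 CPM in 6m replicates 1 to 4 and at 159, 187, 203 and 196 CPM in 24m replicates 1 to 4. In 6m replicates 2 and 3 it lay above the 24m range, in replicate 1 just above, and in replicate 4 within. The means were 217 ± 38.9 CPM and 186 ± 19.6 CPM (SD, n = 4), with a log2FC of −0.20 (SE 0.126, 95% interval −0.46 to 0.05) and an adjusted p of 0.260 (edgeR quasi-likelihood test, Benjamini-Hochberg), and the exact permutation test (two-sided) gave p = 0.2.

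Vip (ENSMUSG00000019772, chr10:5589186-5599956, plus strand, 7 exons) encodes vasoactive intestinal peptide, the mark of interneurons that largely target other interneurons. Its counts were low, 12, 6, 16 and 7 in 6m replicates 1 to 4 and 5, 17, 15 and 26 in 24m replicates 1 to 4, which gave 14.8, 10.8, 19.9 and 8.79 CPM at 6m against 7.62, 17.7, 19.2 and 19.9 CPM at 24m. The highest libraries of both ages were alike and the lowest of all was a 24m library. The means were 13.6 ± 4.90 CPM and 16.1 ± 5.74 CPM (SD, n = 4), with a log2FC of 0.28 (SE 0.331, 95% interval −0.40 to 0.96) and an adjusted p of 0.591 (edgeR quasi-likelihood test, Benjamini-Hochberg). Counting alone gives a coefficient of variation of 33.1% at 6m and 28.6% at 24m, close to the 36.1% and 35.6% seen, so that the interval of Vip left room for differences in either direction.

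Within libraries, the summed peptide genes lay lower at 24m against the summed genes for GABA synthesis and transport. Cck and Sst hold most of the peptide counts, and Gad1 and Slc32a1 most of the others. The ratio of the sums thus mostly restates the differences of these genes, while Npy and Vip did not pass. The summed counts of Sst, Vip, Npy and Cck were 7.51 ± 0.677 times those of Gad1, Gad2 and Slc32a1 at 6m and 4.45 ± 0.644 times at 24m (SD, n = 4). These ratios ran from 6.93 to 8.47 at 6m and from 3.72 to 5.29 at 24m, without overlap. Sst per Slc32a1 count was 4.65 ± 0.779 at 6m and 2.98 ± 0.193 at 24m, and Sst per Gad1 count was 7.45 ± 1.76 and 3.82 ± 1.05 (SD, n = 4), and neither overlapped between the ages. Against Gad2, with its 8 to 25 counts, the mean of Sst was not lower at 24m: Sst per Gad2 count was 39.4, 41.2, 28.2 and 40.3 in 6m replicates 1 to 4 and 49.6, 47.6, 49.4 and 33.3 in 24m replicates 1 to 4, and these overlapped. The peptides set against each other overlapped: Cck per Sst count was 1.58 ± 0.130 at 6m and 1.45 ± 0.0481 at 24m, and Npy per Sst count was 0.297 ± 0.0535 and 0.308 ± 0.0345 (SD, n = 4). No test was made of any ratio.

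**Figure D2:**
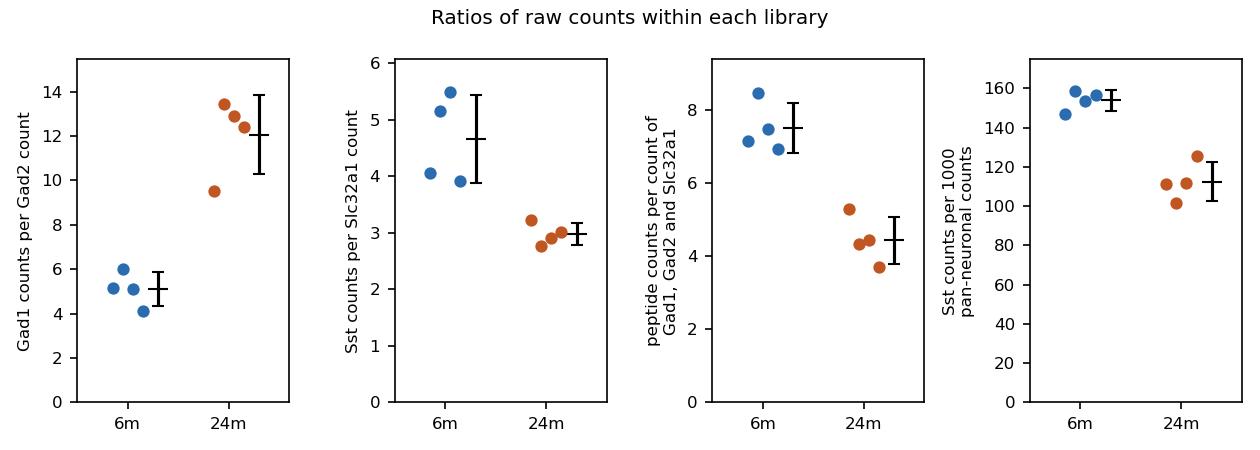
Ratios of raw counts within each library (vertical axes, each from 0) for 6m (blue) and 24m (orange), with the mean and SD in black: Gad1 per Gad2, Sst per Slc32a1, the 4 peptide genes per count of Gad1, Gad2 and Slc32a1, and Sst per 1000 counts of pan-neuronal genes. In each panel the libraries of the ages do not overlap, with Gad1 per Gad2 higher at 24m and the other ratios lower.

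Both genes for calcium-binding proteins failed to pass. Pvalb (ENSMUSG00000005716, chr15:78075314-78091149, minus strand, 4 exons) encodes parvalbumin, a calcium buffer of fast-spiking basket and chandelier cells and of Purkinje cells. It stood at 1149.6, 810.1, 800.3 and 954 CPM in 6m replicates 1 to 4 and at 1164.5, 840.1, 770.4 and 745 CPM in 24m replicates 1 to 4. Replicate 1 was the highest library at both ages and the ages overlapped widely. The means were 929 ± 163 CPM and 879.9 ± 194 CPM (SD, n = 4), with a log2FC of −0.086 (SE 0.123, 95% interval −0.34 to 0.17) and an adjusted p of 0.663 (edgeR quasi-likelihood test, Benjamini-Hochberg), and the exact permutation test (two-sided) gave p = 0.657. The sign of this difference was not settled: the log2FC was 0.041 without 6m replicate 1, 0.0032 without 24m replicate 4 and 0.012 when library sizes were used without TMM. Among mice Pvalb varied by 17.6% at 6m and 22.0% at 24m, where counting alone gives 3.89% and 3.61%.

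Calb2 (ENSMUSG00000003657, chr8:110864128-110894881, minus strand, 11 exons) encodes calretinin, the calcium-binding protein of bipolar interneurons, of olfactory bulb periglomerular cells and of cerebellar granule cells. It stood at 283, 213, 253 and 326 CPM in 6m replicates 1 to 4 and at 258, 243, 211 and 202 CPM in 24m replicates 1 to 4. In 6m replicates 1 and 4 it lay above the 24m range, and in replicates 2 and 3 within it. The means were 269 ± 47.8 CPM and 228 ± 26.3 CPM (SD, n = 4), with a log2FC of −0.25 (SE 0.120, 95% interval −0.50 to −0.004) and an adjusted p of 0.140 (edgeR quasi-likelihood test, Benjamini-Hochberg), and the exact permutation test (two-sided) gave p = 0.2. Without 24m replicate 1 the log2FC of Calb2 was −0.30 with an adjusted p of 0.0489 (edgeR quasi-likelihood test, Benjamini-Hochberg). Calb2 per Pvalb count was 0.292 ± 0.0447 at 6m and 0.264 ± 0.0296 at 24m (SD, n = 4), with overlap.

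**Figure D3:**
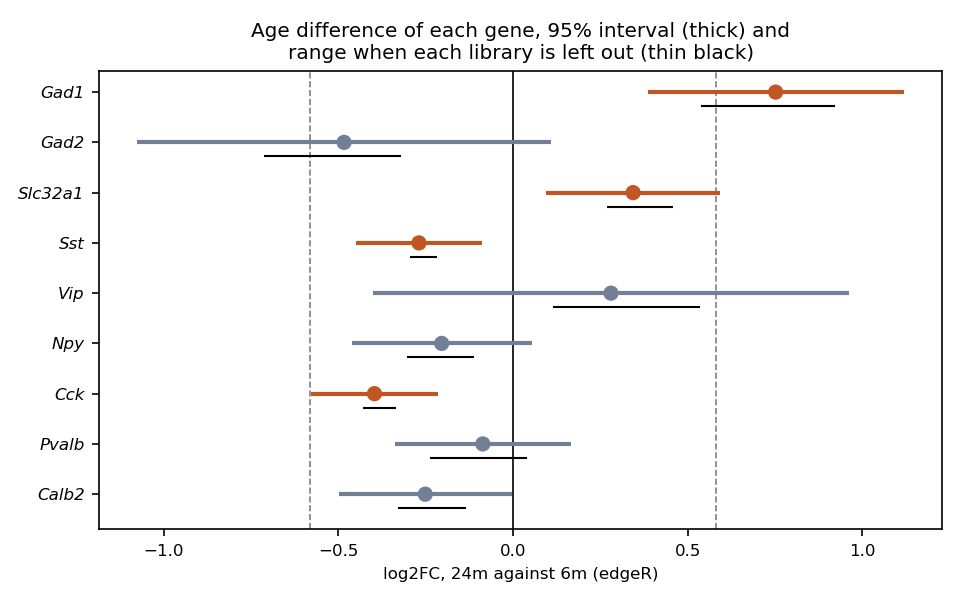
The log2FC of each of the 9 genes, 24m against 6m (horizontal axis, edgeR), with its 95% interval as a thick line and, beneath it, the range of log2FC when each library in turn was left out as a thin black line; orange marks an adjusted p of at most 0.05, grey the others, and dashed lines the fold minimum of 0.58 in either direction. Gad1 lies beyond the minimum at 0.75, and Slc32a1, Sst and Cck lie inside it with intervals that exclude 0. The interval of Calb2, −0.50 to −0.004, also excludes 0, though its adjusted p was above 0.05. The left-out range of Pvalb, −0.24 to 0.041, crosses 0.

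The promoter sequences of the pair that was higher at 24m by the adjusted p and of the pair that was lower are shown to set their composition side by side. They are the 250 bases before the start of the gene in RefSeq's table, which held 8 of the 9 genes (Pvalb with 2 entries) on GRCm38.p6, an older build than the GRCm39 of the gene positions above. The capitals mark TGACG on either strand, a motif that lies inside the palindrome TGACGTCA known as the cAMP response element. The promoters lay at chr2:70561879-70562128 on the plus strand for Gad1, chr2:158610508-158610757 on the plus strand for Slc32a1, chr16:23890845-23891094 on the minus strand for Sst and chr9:121495695-121495944 on the minus strand for Cck.
Gad1: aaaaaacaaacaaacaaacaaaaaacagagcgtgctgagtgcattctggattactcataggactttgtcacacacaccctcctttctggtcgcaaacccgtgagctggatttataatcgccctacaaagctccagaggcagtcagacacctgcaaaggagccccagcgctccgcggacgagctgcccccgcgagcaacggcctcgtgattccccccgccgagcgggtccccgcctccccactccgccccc
Slc32a1: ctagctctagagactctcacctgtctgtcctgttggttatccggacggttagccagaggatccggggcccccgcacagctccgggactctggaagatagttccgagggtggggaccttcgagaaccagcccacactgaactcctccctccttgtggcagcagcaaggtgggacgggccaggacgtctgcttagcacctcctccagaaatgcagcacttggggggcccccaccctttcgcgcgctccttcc
Sst: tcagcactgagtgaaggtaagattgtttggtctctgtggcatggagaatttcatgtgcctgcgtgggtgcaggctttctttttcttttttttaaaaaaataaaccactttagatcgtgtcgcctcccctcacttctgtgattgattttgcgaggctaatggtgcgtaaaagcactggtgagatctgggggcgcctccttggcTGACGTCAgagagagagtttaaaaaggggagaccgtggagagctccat
Cck: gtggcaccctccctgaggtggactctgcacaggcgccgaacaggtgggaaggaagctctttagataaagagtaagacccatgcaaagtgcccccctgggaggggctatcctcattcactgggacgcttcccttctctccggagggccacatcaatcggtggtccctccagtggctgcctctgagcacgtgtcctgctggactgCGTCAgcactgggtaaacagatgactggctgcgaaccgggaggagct

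Sst held the whole palindrome TGACGTCA with its first base at −48 from the start, which is also a match of TGACG on both strands. Cck held TGACG on the opposite strand at −47. The same letters were found at −79 in Vip and, on the opposite strand, at −33 in Gad2, and were not in the windows of Gad1, Slc32a1, Npy and Pvalb. Of 32851 promoters of the same length in the table, 17.8% held TGACG on either strand and 1.55% held TGACGTCA. The GC content was 58% for Gad1, 62.4% for Slc32a1, 47.2% for Sst and 60.0% for Cck, where the median of all promoters was 52.4%. These matches are descriptions of letters and no binding was measured.

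Levels of different genes were compared as CPM per kb of the canonical transcript, although direct RNA reads start at the poly(A) tail and their number need not grow with length. The order of mean levels over the 8 libraries, in CPM per kb, was Sst at 387 (316 to 440), Npy at 356 (280.1 to 454), Pvalb at 288 (237 to 371), Cck at 255 (205 to 322) and Calb2 at 169 (137 to 222). Then came the genes for synthesis and transport and Vip, with Slc32a1 at 63.1 CPM per kb (46.7 to 75.6), Gad1 at 32.5 (18.8 to 57.3), Vip at 9.47 (4.86 to 12.7) and Gad2 at 2.79 (1.88 to 4.29). Neighbours in this order overlapped among libraries except Calb2 and Slc32a1, Gad1 and Vip, and Vip and Gad2. Without division by length the order differed: at both ages the mean CPM of Cck and Pvalb was above that of Sst, and that of Calb2 above that of Npy. The order of Gad1 and Gad2 holds for these canonical transcripts of 4152 and 6099 bases, of which 1779 and 1755 are coding.

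Beside the shares that follow for other lists stand those of all tested genes, of which 14.5% changed, 10.3% rose and 4.17% fell, so that 71.2% of all changed genes rose. Of 15 listed genes for GABA metabolism and uptake, with glutamine supply and chloride transport, 14 were tested, 5 rose, 1 fell and 8 did not pass, and the median log2FC was 0.30. These are 42.9% changed of 14 tested. Abat, the transaminase that degrades GABA, rose from 11.1 ± 3.59 CPM at 6m to 34.8 ± 11.5 CPM (SD, n = 4), with a log2FC of 1.61 and an adjusted p of 0.000547 (edgeR quasi-likelihood test, Benjamini-Hochberg). Slc38a2, a glutamine transporter, rose with a log2FC of 1.39, Slc6a11, the glial transporter GAT3, with 1.28, and Glul, the glutamine synthetase of astrocytes, with 0.65. The gene that fell was Slc12a2, the chloride importer NKCC1, with a log2FC of −1.51. It rested on 2 to 17 counts per library, and its ages overlapped. In each of the 4 named genes that rose, every 24m library lay above every 6m library. The list of astrocyte markers, cells that use several of these genes, summed to 2887 ± 239 CPM at 6m (2624 to 3090.3) against 2925 ± 317 CPM at 24m (2651 to 3373), and of its 8 tested markers 3 rose, Gfap and Slc1a3 (log2FC 1.94 and 1.65) among them, 1 fell and the median log2FC was 0.24. The part of astrocytes in these differences was not tested.

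Of 20 listed genes for GABA receptors and the inhibitory postsynaptic scaffold, 15 were tested, 3 rose, none fell and 12 did not pass, with a median log2FC of 0.17. Those that rose were Nlgn2, the neuroligin of inhibitory synapses, with a log2FC of 1.57, Gabbr2, a subunit of the GABA-B receptor, with 1.55, and Gabra3, a subunit of the GABA-A receptor, with 1.17. The ages overlapped for Gabbr2 and Gabra3, on 5 to 44 and 2 to 23 counts per library. Of 18 listed transcription factor genes of interneuron development, 17 were in the table and 6 had enough counts to be tested, and none changed by the edgeR quasi-likelihood test. The 2 most abundant were the homeobox gene Dlx1, with a log2FC of −0.10 ± 0.268 (SE), and Npas1, with −0.14 ± 0.288 (SE). Their exons lie opposite to those of other genes over 3251 bases (Dlx1as) and 1563 bases (Tmem160).

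Of 28 other listed markers of interneuron subtypes, 21 were tested, 3 rose, none fell and 18 did not pass, with a median log2FC of 0.28. The share that changed, 14.3%, was near the 14.5% of all tested genes. Cplx1, a complexin of fast synapses, rose from 172 ± 34.6 CPM at 6m to 371 ± 62.3 CPM (SD, n = 4), with a log2FC of 1.09. Nxph1, a neurexin ligand, rose with a log2FC of 1.22 and Kcnc1, the Kv3.1 channel of fast-spiking neurons, with 0.67. Nxph1 rested on 3 to 23 counts per library, with overlap between the ages. Several of these genes are expressed by other neurons too.

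Of 13 listed genes that process and store neuropeptides, all 13 were tested, none rose, 1 fell and 12 did not pass, with a median log2FC of −0.01 and 5 positive values. The share that changed was 7.69%, on few genes. The one that fell was Pam, the enzyme that amidates the carboxy terminus of peptides such as NPY, VIP and CCK, with a log2FC of −0.71 and an adjusted p of 0.0239 (edgeR quasi-likelihood test, Benjamini-Hochberg). By the adjusted p alone, 3 more were lower at 24m, with log2FC under the fold minimum: Scg2 (secretogranin II) at −0.39, Pcsk1n (proSAAS) at −0.38 and Chga (chromogranin A) at −0.30. Of 13 listed receptors of the 4 peptides, 3 had enough counts to be tested. Cckbr, the main cholecystokinin receptor of the brain, rose with a log2FC of 0.85 and Adcyap1r1, which binds PACAP and, weakly, VIP, rose with 1.57, whereas the somatostatin receptor Sstr2 had a log2FC of −0.40 ± 0.297 (SE) and did not pass. Adcyap1r1 rested on 1 to 16 counts per library, with overlap between the ages.

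Of 20 listed genes for other calcium-binding proteins, 16 were tested, 5 rose, none fell and 11 did not pass, with a median log2FC of 0.41. Hpcal4, a visinin-like sensor, rose with a log2FC of 2.54, Ppp3r1, the regulatory subunit of calcineurin, with 1.26, Ncs1, neuronal calcium sensor 1, with 1.16, Efhd2 with 0.82 and Ncald, neurocalcin delta, with 0.78. The ages overlapped for Ncs1, on 5 to 44 counts per library. Ppp3r1 and Ncald overlap Dnaaf10 and Gm49397 on their own strand by 462 and 315 exon bases. Over these 7 lists, 20 genes changed, 18 of which rose, where 71.2% of all changed genes rose. Without 24m replicate 1, 25 genes of these lists changed. The lists were chosen with earlier results of these data known, and no test of a list was made.

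**Figure D4:**
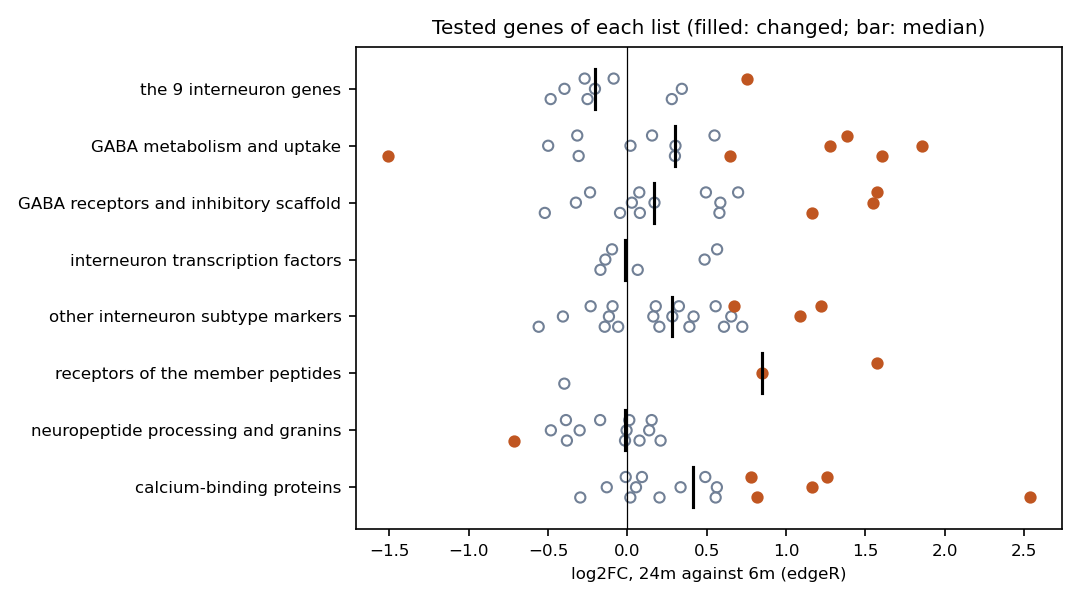
The log2FC of every tested gene, 24m against 6m (horizontal axis, edgeR), for the 9 interneuron genes and the 7 other lists (vertical axis), where orange filled points mark changed genes, open points those that did not pass and black bars the median of a list. The median of the 9 genes lies at −0.20 and those of the other lists between −0.02 and 0.85, the last from 3 tested genes.

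A hemisphere holds many regions that express these 9 genes, and marker lists of regions and cell types are given beside them. Cortical glutamatergic neurons had 2 of 9 tested markers that rose (Slc17a7, 0.58, and Tbr1, 0.81, both log2FC). Striatal projection neurons had 3 of 10 that rose (Gng7, 1.40, among them) and 1 that fell (Bcl11b, −1.43). The median log2FC of these 10 was 0.06, with 5 positive values. Bcl11b rested on 3 to 15 counts per library, and Gng7 shares 257 exon bases with Gm3828 on its own strand. Purkinje cells had 2 of 9 that rose (Car8, 0.72, and Ppp1r17, 0.94) and cerebellar granule cells 3 of 9 (Zic2, 1.27, and Cbln3, 1.76). None of 9 hypothalamic markers changed by the edgeR quasi-likelihood test. Of 4 tested olfactory bulb markers, Synpr rose with a log2FC of 1.05 and Doc2g, which shares 3108 exon bases with Gm49405 on the same strand, fell with −1.54, and 1 of the 8 listed was at 0 in every library. Pan-neuronal genes rose in 3 of 12 (Vamp2, 1.16, and Syp, 0.97, among them) and fell in 1, and their summed level went from 4741 ± 94.5 to 5384 ± 232 CPM (SD, n = 4). Astrocyte markers rose in 3 of 8 and fell in 1 (Gfap, 1.94, and Slc1a3, 1.65, among those that rose), oligodendrocyte markers rose in 2 of 8 (Mbp, 0.72, among them) and microglial markers in 2 of 8 (Ctss, 0.75, and Tmem119, 1.03).

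Gad1 moved with the olfactory bulb list within each age. That list summed to 83.7, 165, 189 and 85.4 CPM in 6m replicates 1 to 4 and to 93.0, 93.6, 111 and 163 CPM in 24m replicates 1 to 4. The libraries highest in Gad1, 6m replicates 3 and 2 and 24m replicates 4 and 3, were also the highest of their age in this list. Between the ages the summed list overlapped, with a mean of 131 ± 54.2 CPM at 6m against 115 ± 33.2 CPM at 24m (SD, n = 4). The median log2FC of its tested markers was −0.02. With the summed list as a covariate, chosen after it was seen to move with Gad1, the log2FC of Gad1 was 0.82. No p of this fit is given, since the choice of the covariate lowers it. The part of olfactory bulb tissue in the difference of Gad1 was not tested.

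Pvalb was highest in the same library of each age as the Purkinje cell list. That list summed to 2536, 2069, 2074 and 2157 CPM in 6m replicates 1 to 4 and to 2338, 2168, 1962 and 2039.6 CPM in 24m replicates 1 to 4. Replicate 1 was the highest library of each age in both, while the order of the lowest libraries of each age differed between Pvalb and the list. Of the 9 markers, Pcp4 alone held 976 ± 33.0 of the mean sum of 2209 CPM at 6m. At 24m it held 794 ± 64.6 of 2127 CPM (SD, n = 4). With this list as a covariate, also chosen after seeing the data, the log2FC of Pvalb was 0.020 and that of Gad1 was 0.63.

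**Figure D5:**
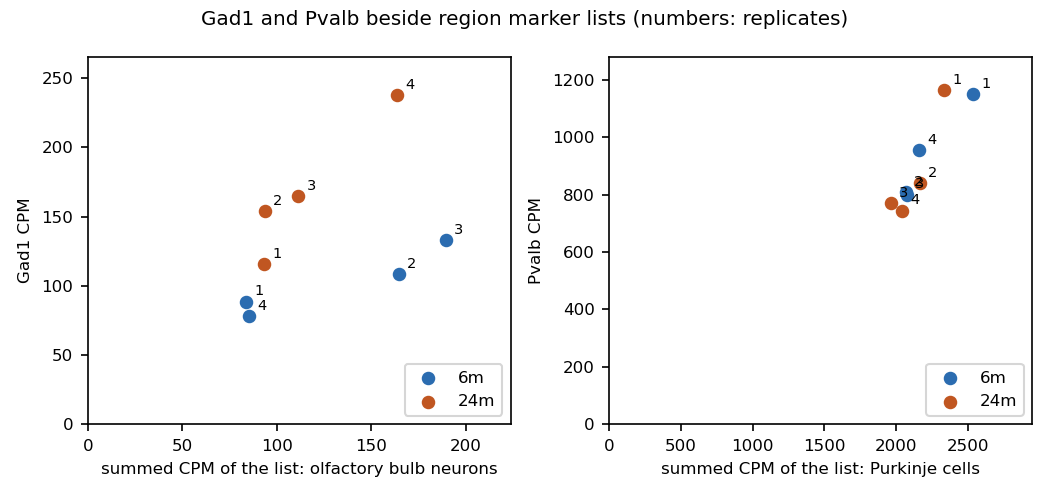
Left, Gad1 CPM (vertical axis) against the summed CPM of 8 olfactory bulb markers (horizontal axis), and right, Pvalb CPM against the summed CPM of 9 Purkinje cell markers, for the 4 libraries of 6m (blue) and the 4 of 24m (orange), numbered by replicate, with all axes from 0. Gad1 is highest in 24m replicate 4, at 238 CPM, and Pvalb in replicate 1 of both ages, at 1149.6 and 1164.5 CPM.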

How the data were processed

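Raw gene counts were deposited for the 8 libraries. The authors obtained them from direct RNA reads (kit SQK-RNA002, MinION). The reads were mapped to GRCm39 with minimap2 2.24, a version and build named in the submitters' processing notes, and counted with featureCounts. The strand, overlap and multi-mapping settings of the counting are not given in the sources used here, so that reads of genes with exons on opposite strands may be shared: Gad1 overlaps Gad1os by 99 exon bases, Slc32a1 overlaps Gm14204 by 302 and Gm14205 by 697, and Cck overlaps Gm68675 by 418 and Gm69828 by 276. Symbols and positions came from GENCODE vM39, which matched 22281 of the 22430 identifiers.

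The deposited counts were tested with edgeR 4.0.16 in R 4.3.3 (quasi-likelihood test, TMM, age as the only term, genes with a mean count over 5, Benjamini-Hochberg over 9375 tested genes). SE came from log2FC and the F statistic. DESeq2 1.42.0 and limma 3.58.1 (voom) served as alternatives, besides other scalings, filters, an adjusted p alone, a replicate block, each library left out, and 2 covariates added after seeing the data. Total counts set the precision, and intervals that counting gives cover counting error only. The named genes are the 9 genes, up to 5 changed genes with the smallest p of each GABA or interneuron list (or the 2 most abundant where none changed), and up to 2 of each marker list, of which a few are not reported here. Scg2, Pcsk1n, Chga, Sstr2, Nrgn, Pcp4 and Bcl11b fall outside this rule and were named after their values were seen. The members and lists were chosen with earlier results of these data known.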

Additional observations from a re-analysis of the deposited data

Results flagged for a closer look

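In the 24m group, the Cck level of replicate 2, 816.14 CPM, stood apart from those of the other 3 libraries, 889.8, 896 and 905 CPM, with a gap of 0.831 of the group's range, just past the critical value of Dixon's test for 4 samples. It was the lowest library of the age that was lower. In the 6m group, the total count of replicate 2, 573152, stood apart from the others, 818963, 838483 and 843706, with a gap of 0.909 of the range. The count of Sst per Gad2 count was 28.2 in 6m replicate 3 against 39.4 to 41.2 in the other 6m libraries (gap 0.864 of the range), and 33.3 in 24m replicate 4 against 47.6 to 49.6 in the other 24m libraries (0.878). Of 80 groups of 4 libraries examined, these 4 passed, and chance flags about 1 in 20 groups.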

How the results depend on the processing

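Counts of the 9 genes that changed went from 1 to 0 in DESeq2 on quantile-normalized counts and to 4 by the adjusted p alone, and ran from 0 to 1 with each library left out, being 0 without 24m replicate 4. The 20 changed genes of the other GABA and interneuron lists were 15 to 25 with each library left out, and the 25 of the marker lists were 22 to 35, and 40 by the adjusted p alone. The highest of both, 25 and 35, came without 24m replicate 1, the library that stood apart from its age. In DESeq2 on quantile-normalized counts, the setting nearest to the study's methods, the adjusted p passed for none of the 4 genes. It was 0.0873 for Gad1 (log2FC 0.72), 0.0923 for Slc32a1 (0.34), 0.350 for Sst (−0.15) and 0.0982 for Cck (−0.23). In that setting 8.74% of all tested genes changed, and 8.90% in DESeq2 on raw counts, against 14.5% in the main fit. Of the other GABA and interneuron lists 16 genes changed in that setting, and of the marker lists 17. In limma-voom with quantile normalization Sst (−0.14, adjusted p 0.213) and Cck (−0.21, 0.0513) failed. DESeq2 on raw counts gave Slc32a1 0.35 with an adjusted p of 0.0876. Sst also failed in edgeR with library sizes alone (−0.16), a total count over 5 (−0.26, adjusted p 0.0564), more than 5 counts in every library (−0.22, 0.0515) and no filter (−0.25, 0.0689). Pvalb turned positive with library sizes alone (0.012), quantile normalization in DESeq2 (0.090) and voom (0.062), and the Purkinje covariate (0.020). Calb2 passed without 24m replicate 1 (−0.30, adjusted p 0.0489, edgeR quasi-likelihood test). With the olfactory bulb covariate, chosen after seeing the data, the log2FC of Calb2 was −0.28, and no p of that fit is given. The causes of these differences were not tested. With each library left out, log2FC ran from 0.54 to 0.92 for Gad1, −0.71 to −0.32 for Gad2, 0.27 to 0.46 for Slc32a1, −0.30 to −0.22 for Sst, 0.11 to 0.54 for Vip, −0.30 to −0.11 for Npy, −0.43 to −0.34 for Cck, −0.24 to 0.041 for Pvalb and −0.33 to −0.13 for Calb2. Vip could not be tested with more than 5 counts in every library. Library sizes alone moved the median log2FC of all genes to 0.10. The replicate numbers did not pair the libraries, with correlations of same-numbered deviations of 0.06, −0.01, 0.01 and −0.16 and a single number whose libraries correlated best with each other, and with a replicate block Gad1 had a log2FC of 0.73, no member call changed and 1308 genes changed in place of 1359. Few counts limit Gad2 and Vip.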

Other observations

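Set against the summed counts of 12 pan-neuronal genes in the same library, Sst and Cck were lower at 24m. Sst stood at 153.9 ± 5.19 counts per 1000 pan-neuronal counts at 6m and 113 ± 9.85 at 24m (SD, n = 4 each), and Cck at 244 ± 23.2 and 163 ± 9.41, both without overlap between the ages. Gad1 stood at 21.5 ± 5.04 and 31.5 ± 10.8 and Slc32a1 at 33.7 ± 5.37 and 37.8 ± 3.04 per 1000 pan-neuronal counts, both with overlap. The pan-neuronal sum itself was higher at 24m, and these ratios were chosen with results known and were not tested.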
